A study of Mus musculus with 12 samples.

Results

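The genes described here are 10 genes that cells switch on when oxygen falls but that do not encode glucose transporters or glycolytic enzymes. They are the secreted peptide gene Adm, the mitochondrial genes Bnip3, Bnip3l and Higd1a, the oxidoreductase gene Ero1l of the endoplasmic reticulum (ER), the iron uptake gene Tfrc, the transcriptional repressor genes Bhlhe40 and Mxi1, and Ndrg1 and Ankrd37. They were chosen by name from what is generally known of the hypoxia response, with earlier results of these data known, so that their counts are descriptions and not independent evidence. All 10 have an entry among the 43280 entries of the first expression table and 9 have one among the 23930 entries of the second. The same 9, all but Bnip3l, passed the filter on low values in both comparisons.

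In oxygenated cells, prolyl hydroxylases of the Egln family mark the α subunits of hypoxia-inducible factor (HIF) for recognition by the von Hippel-Lindau protein and degradation. These hydroxylases use oxygen, iron and 2-oxoglutarate, and 2-hydroxyglutarate (2-HG), the compound that cancer-associated mutants of isocitrate dehydrogenase make, resembles 2-oxoglutarate. Stabilized HIF pairs with Arnt and binds short hypoxia response elements, and besides glycolysis its targets serve vascular signalling, the removal of mitochondria, protein folding, iron uptake and transcriptional repression.

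RNA was measured in mouse embryonic fibroblasts (MEF cells), a line that became immortal in culture without an added gene and derives from C57BL/6 embryos of embryonic day 13.5, in 12 libraries, 3 in each of 4 groups. 2MUT cells stably expressed FLAG-tagged human IDH2 with an arginine-to-serine change at the active site from a retroviral vector, Control cells carried the empty vector, and both had been selected with puromycin; they are transduced populations of 1 immortalized line, not stated to be clones. In the second experiment MEF cells received a membrane-permeant form of 2-HG at 300 μM for 24 h, the 2-HG(+) group, or none, the 2-HG(-) group, for which the labels give the solvent DMSO and the study's text says non-treated cells. The comparisons ask whether the hypoxia response genes outside glycolysis move with the mutant enzyme, with its product, or with both. No library came from cells expressing wild-type IDH2. In 2MUT an effect of the mutation therefore cannot be told apart from one of the added IDH2 protein. The study states that experiments were done in triplicate but not whether the libraries of a group came from separate cultures, so the p-values measure only the spread between these libraries.

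In each library short targets of genes were amplified and sequenced, and a value is given as RPM, the reads of an entry scaled to a library of 1000000. RPM values do not compare levels between genes. The first table lists 43280 entries and the second 23930, with 20443 names shared. Whether a shared name stands for the same target in both was not tested. The first experiment held between 6472439 and 7313602 reads per library and the second between 14959318 and 18363768, so that 3 reads, taken as the floor of detection, were worth 0.41 to 0.464 RPM and 0.163 to 0.201 RPM. The fibroblast markers, 8 in the first table and 7 in the second (without Twist2, which was at 0 in the first), summed to between 14256 and 16251 RPM in Control, 12981 and 13428 in 2MUT, 21140 and 22797 in 2-HG(-) and 15050 and 16064 in 2-HG(+). Of the 7 tested, 1 was higher and 5 were lower in 2MUT, where 17.3% of all genes were called lower, and 1 was higher and 3 were lower with 2-HG, where 16.7% of all genes were. The 5 came to 3 with no filter on low values and without 2MUT replicate 2, 2MUT replicate 3 or Control replicate 3, and the 1 higher in 2MUT to 0 with no filter, in the unmoderated test (per gene, the form the study used) or without 2MUT replicate 3, and to 2 without Control replicate 3. Epithelial markers summed to at most 0.6 RPM in any library, with Epcam at 0 throughout, endothelial markers to at most 2.94 RPM, and macrophage markers, most of it Cd68 with Ptprc at or near 0, to between 7.55 and 12.4 RPM in Control, 7.02 and 8.35 in 2MUT, 12.1 and 14.6 in 2-HG(-) and 8.86 and 11.0 in 2-HG(+). The sums of the second experiment did not overlap, and of the 2 macrophage markers tested there 1, Cd68, was called lower (limma, adjusted p = 0.021; lost without 2-HG(+) replicate 2, 2-HG(-) replicate 1 or 2-HG(-) replicate 2, up to 0.072, with no filter and in the unmoderated test). In such bulk samples fewer cells of a type and less RNA per cell cannot be told apart, and the part of the fibroblast and macrophage markers in the results on the hypoxia genes was not tested.

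The core of a hypoxia response element is ACGTG or GCGTG, read on either strand (CACGT or CACGC on the other). It overlaps the E-box CACGTG, which other factors bind, Bhlhe40 and the MYC network among them, and a CACGTG counts as a core on each strand. RefSeq start sites of the GRCm38.p6 assembly were given for 7 of the 10 genes, 10 windows of 250 bases upstream of a start in all, and 9 of the 10 windows held at least 1 core; the window of the first Mxi1 start held 0. Of 32841 such windows over all genes, 38.6% held at least 1 core, 16.7% at least 2, 6.6% at least 3 and 1.0% at least 5. Ndrg1, Bhlhe40 and Bnip3l were not among the start sites given here, which does not mean that RefSeq holds none for them. Printed here, 5′ to 3′ along the gene's strand with the cores in capitals, are the exon-free stretches upstream of Ero1l, which rose in both comparisons, Bnip3, which rose in 2MUT alone of the 2 tests, Tfrc, which rose with 2-HG, and Ankrd37, which passed neither test. They lie at chr14:45318573-45318702 on the minus strand for Ero1l (130 bases, 3 cores), chr7:138909520-138909756 on the minus strand for Bnip3 (237 bases, 5 cores), chr16:32608646-32608895 on the plus strand for Tfrc (250 bases, 2 cores) and chr8:45999868-46000100 on the minus strand for Ankrd37 (233 bases, 3 cores).
Ero1l: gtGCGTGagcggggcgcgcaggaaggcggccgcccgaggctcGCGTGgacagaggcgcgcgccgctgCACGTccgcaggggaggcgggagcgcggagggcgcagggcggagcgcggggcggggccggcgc
Bnip3: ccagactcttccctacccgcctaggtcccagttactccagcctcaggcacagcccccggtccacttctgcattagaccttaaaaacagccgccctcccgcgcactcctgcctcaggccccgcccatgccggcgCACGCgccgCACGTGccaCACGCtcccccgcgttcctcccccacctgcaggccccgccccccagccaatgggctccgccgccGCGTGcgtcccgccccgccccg
Tfrc: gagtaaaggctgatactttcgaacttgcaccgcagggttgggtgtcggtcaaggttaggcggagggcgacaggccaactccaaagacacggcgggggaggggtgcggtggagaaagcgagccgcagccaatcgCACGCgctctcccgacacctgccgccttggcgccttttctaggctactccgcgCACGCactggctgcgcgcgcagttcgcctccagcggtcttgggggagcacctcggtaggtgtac
Ankrd37: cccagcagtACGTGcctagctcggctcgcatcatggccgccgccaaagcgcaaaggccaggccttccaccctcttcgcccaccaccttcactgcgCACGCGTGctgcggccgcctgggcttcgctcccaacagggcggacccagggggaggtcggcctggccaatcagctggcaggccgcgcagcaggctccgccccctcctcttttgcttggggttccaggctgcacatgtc
The letters show where the motif occurs and not that HIF was bound there. Ankrd37 held as many cores in its stretch as Ero1l and passed neither test.

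In 2MUT cells 5 of the 9 tested genes rose and 1 fell. Ero1l, Higd1a, Ndrg1, Bnip3 and Adm were higher than in Control, by 1.35- to 1.76-fold on the scale of log2(RPM + 1), and Bhlhe40 was lower, at 0.58 of the Control level. Mxi1, Tfrc and Ankrd37 did not pass the test. Over all 11065 genes tested, 16.5% were called higher and 17.3% lower (limma, Benjamini-Hochberg adjusted p under 0.05), so that 5 of 9 is a larger share than this background and 1 of 9 is not. The unmoderated test called 2 of the 9, Higd1a and Ndrg1, higher and 0 lower, so that under it Ero1l, Bnip3, Adm and Bhlhe40 lost their calls (adjusted p = 0.064, 0.053, 0.17 and 0.091). The median log2 fold change of the 9 genes was 0.47 and that of all genes 0.01.

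With 2-HG, 3 of the 9 tested genes rose. Ero1l was 2.92-fold, Ndrg1 2.21-fold and Tfrc 1.80-fold higher in 2-HG(+) than in 2-HG(-), and the other 6 did not pass the test. No gene of the 9 was lower by limma, edgeR or DESeq2, and 0 were lower at an unadjusted p under 0.05. Over all 10384 genes tested, 16.1% were called higher and 16.7% lower, so that 3 of 9 is again the larger share. The median log2 fold change of the 9 genes was 0.23 and that of all genes -0.02; without 2-HG(+) replicate 1 these were 0.071 and 0.015. Ero1l and Ndrg1 were thus the genes that rose in both experiments, and both rose more with 2-HG than in 2MUT by the test of the difference given further on.

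**Figure D1:**
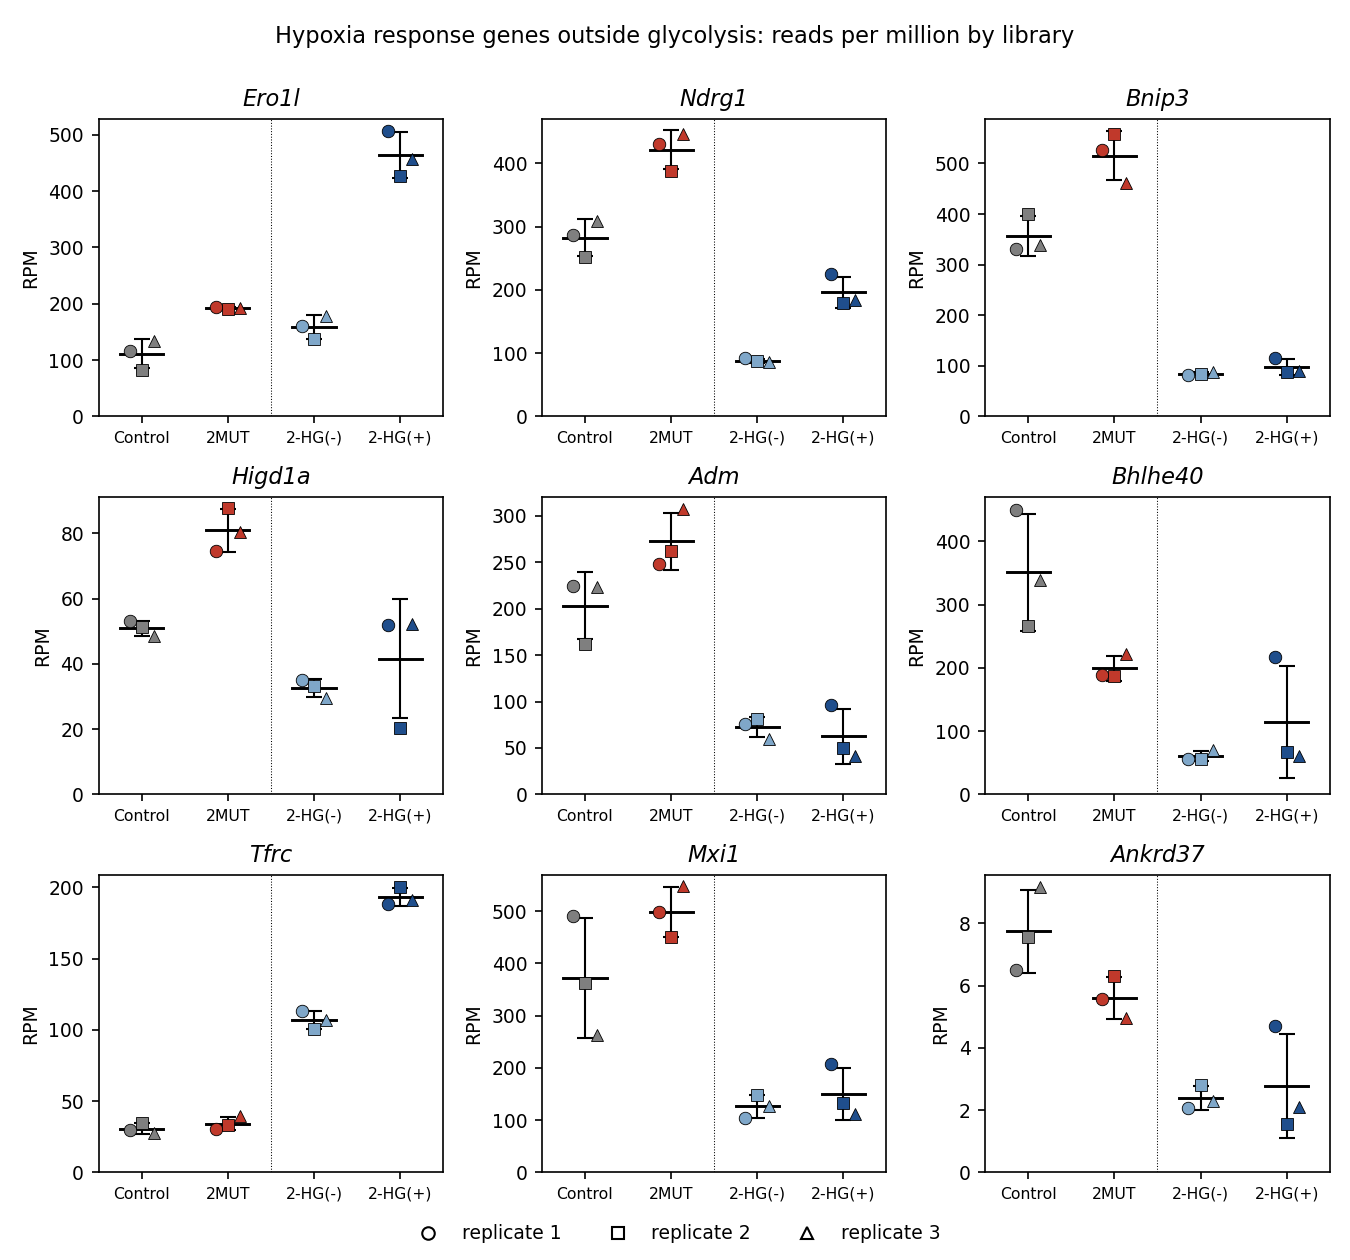
Level of each of the 9 tested genes in RPM (vertical axis, from 0) in every library of the 4 groups (horizontal axis), with the group mean and SD as bars and the replicate number as the symbol. A dotted line parts the experiments, whose tables were normalized separately; the Ero1l, Ndrg1 and Tfrc libraries of 2-HG(+) all lie above those of 2-HG(-), whereas Bhlhe40 has a single high 2-HG(+) library.

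**Figure D2:**
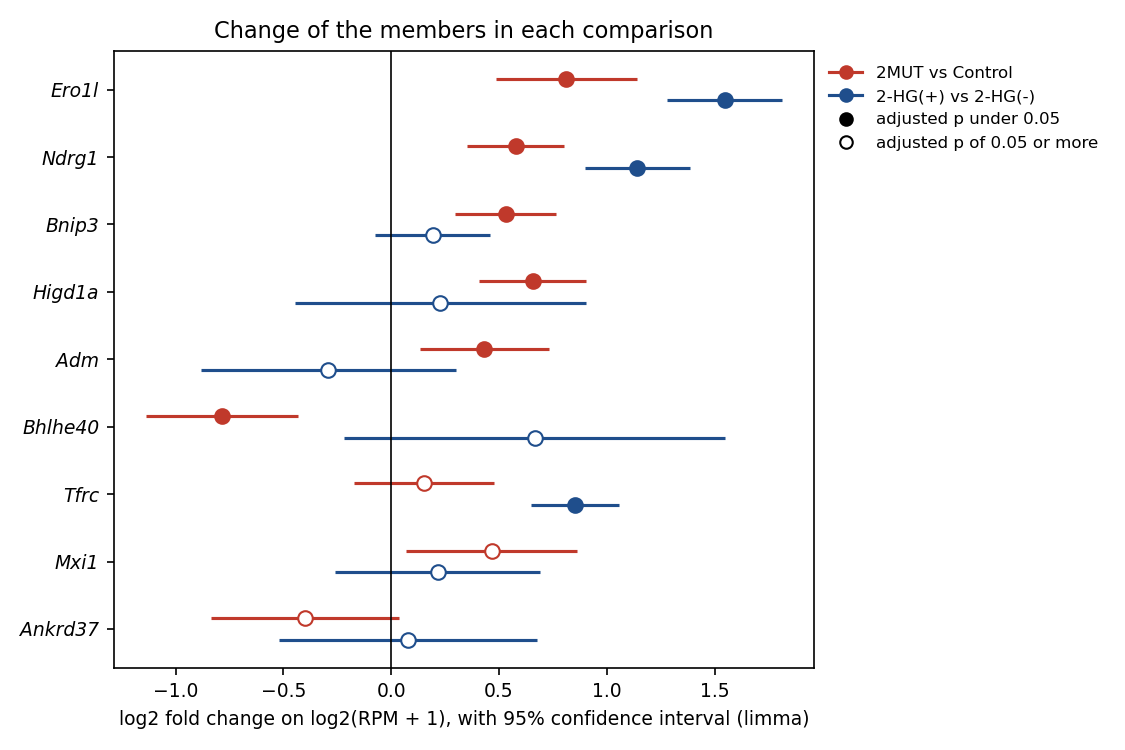
Log2 fold change on log2(RPM + 1) (horizontal axis) of each gene (vertical axis) in 2MUT against Control (red) and in 2-HG(+) against 2-HG(-) (blue), with the 95% confidence interval from limma; filled points have an adjusted p under 0.05. Ero1l and Ndrg1 are filled in both colours, and the widest interval is that of Bhlhe40 with 2-HG, from -0.22 to 1.55.

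Ero1l (also named Ero1a, chromosome 14 from 45283087 to 45318771 on the minus strand in GRCm38, 16 exons) encodes the oxidase that passes electrons from protein disulfide isomerase to oxygen when disulfide bonds form in the ER. Its level was 117, 83.2 and 133 RPM in the Control libraries and 193, 191 and 192 RPM in the 2MUT libraries. The groups did not overlap and the 2MUT libraries were nearly equal, a log2 fold change of 0.81 (SE 0.15, limma, adjusted p = 0.0017). In the other experiment it was 161, 137 and 178 RPM in 2-HG(-) and 507, 426 and 457 RPM in 2-HG(+). Every treated library stood far above every untreated one, and the log2 fold change of 1.55 (SE 0.12, adjusted p = 1.9e-05) was the largest among the 9 genes in either experiment. Both calls held when any single library was left out, and in the unmoderated test the 2-HG call held and the 2MUT call did not.

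The counts of related genes given from here on are to be read against the same background shares. Genes of oxidative folding and ER stress listed beside Ero1l moved both ways in 2MUT, with 3 of 8 higher and 3 of 8 lower (1 lower without 2MUT replicate 2 or in the unmoderated test). Pdia3 and P4hb, protein disulfide isomerases, rose by 0.89 and 0.49 on the log2 scale (limma, adjusted p = 0.00024 and 0.00074). Their means were 54.4 and 2605 RPM in Control, and 1199 and 2334 RPM in 2-HG(-). The Pdia3 rise is thus that of an entry read far less than in the second experiment, and why was not tested. Ddit3, which encodes the stress factor CHOP that can itself induce Ero1l, was 182, 96.4 and 147 RPM in Control and 56.2, 51.1 and 62.7 RPM in 2MUT, and fell by 1.26 (adjusted p = 0.00055). With 2-HG it was the 1 gene of 8 called, going from 39.4, 56.4 and 36.9 RPM to 176, 168 and 183 RPM, a log2 fold change of 1.99 (adjusted p = 1.6e-05). Ddit3 thus changed in opposite directions while Ero1l rose in both experiments, and the difference of its changes, 2MUT minus 2-HG, was -3.25 (SE 0.28, adjusted p = 1.2e-06).

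Ndrg1 (chromosome 15, 66929318 to 66969640, minus strand, 16 exons) encodes a cytoplasmic stress-response protein that is induced by hypoxia and by loss of iron. Control libraries held 287, 252 and 309 RPM and 2MUT libraries 430.3, 387 and 447 RPM. The groups were apart, with a log2 fold change of 0.58 (SE 0.10, limma, adjusted p = 0.0014). Untreated 2-HG(-) libraries held 91.5, 86.8 and 85.1 RPM, a narrow range, and in 2-HG(+) 224, 179.6 and 184 RPM. The change was 1.14 (SE 0.11, adjusted p = 6.8e-05), and both calls held with any library left out. Of its relatives, Ndrg2 was lower in 2MUT (log2 fold change -0.83, adjusted p = 0.016; not called without 2MUT replicate 2 or without 2MUT replicate 3) and Ndrg3 was not called there (-0.0025). With 2-HG, Ndrg3 went from 190.5, 214 and 209 RPM to 179, 147 and 152 RPM and fell by 0.36 (adjusted p = 0.027). That call was lost without 2-HG(+) replicate 2 or 3 or 2-HG(-) replicate 2 or 3 (adjusted p up to 0.11) and with edgeR (0.058) and DESeq2 (0.053).

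Of the mitochondrial genes, Bnip3 (chromosome 7, 138890836 to 138909519, minus strand) encodes a receptor on the outer mitochondrial membrane that recruits the autophagy machinery. It was 330.1, 401 and 339 RPM in Control and 527, 558 and 462 RPM in 2MUT. All 2MUT libraries were above all Control libraries, with a log2 fold change of 0.53 (SE 0.11, limma, adjusted p = 0.0029). The second experiment gave 82.4, 83.3 and 88.4 RPM in 2-HG(-) and 115, 87.7 and 90.3 RPM in 2-HG(+), so that the groups overlapped and the change of 0.19 (95% interval -0.07 to 0.46, adjusted p = 0.25) did not pass the test. Its paralog Bnip3l (chromosome 14, 66985239 to 67008877) was listed at 0 in 5 of the 6 libraries of the first experiment and at 0.309 RPM, 2 reads, in 2MUT replicate 1. That is under the floor, and the entries of Fth1 and Ftl1, the ferritin subunit genes that nearly every cell expresses, were also listed low, at 2.07 and 0.471 RPM in Control and 3.05 and 5.07 RPM in 2MUT (a comparison chosen after the values were seen; Ftl1 rose, limma adjusted p = 0.0002). Whether the entry of Bnip3l could read its transcript was not tested, so its values do not show that the gene was silent. No fold change is given for Bnip3l.

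Higd1a (chromosome 9, 121848563 to 121858362, minus strand) encodes a small protein of the inner mitochondrial membrane that sustains the respiratory chain. It was 53.0, 51.4 and 48.4 RPM in Control and 74.6, 87.8 and 80.4 RPM in 2MUT. The groups were well apart (log2 fold change 0.66, SE 0.11, limma, adjusted p = 0.0012). With 2-HG the libraries disagreed, from 35.0, 33.2 and 29.6 RPM in 2-HG(-) to 52.0, 20.4 and 52.3 RPM in 2-HG(+), with 2 libraries above and 1 below all of the untreated ones. The change was 0.23 (95% interval -0.45 to 0.91, adjusted p = 0.60), and without 2-HG(+) replicate 2 it was 0.67 (adjusted p = 0.007).

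Among other genes of mitophagy, 1 of 11 rose and 3 fell in 2MUT (0 fell in the unmoderated test), and 1 of 10 rose and 2 fell with 2-HG (2 rose without 2-HG(+) replicate 1, and 1 fell without 2-HG(+) replicate 3 or 2-HG(-) replicate 3). Pink1, the kinase that flags damaged mitochondria, was 94.4, 102 and 96.0 RPM in Control and 176, 151 and 137 RPM in 2MUT, and then 57.9, 54.9 and 55.0 RPM in 2-HG(-) and 27.6, 29.2 and 30.6 RPM in 2-HG(+). It rose by 0.66 in 2MUT (limma, adjusted p = 0.0012) and fell by 0.92 with 2-HG (adjusted p = 0.00015). Phb2, the mitophagy receptor of the inner membrane, did the reverse, at -0.55 (adjusted p = 0.0035) and 0.57 (adjusted p = 0.0043). For both genes the difference between the experiments passed its own test, at 1.57 for Pink1 (adjusted p = 2.4e-06) and -1.12 for Phb2 (adjusted p = 0.00015). The HIF target Bnip3 and the stress kinase Pink1 both rose in 2MUT, and with 2-HG Pink1 fell while Bnip3 was not called.

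Adm (chromosome 7, 110627661 to 110629820, plus strand, 4 exons) encodes adrenomedullin, a secreted vasodilator peptide. It was 224, 162 and 224 RPM in Control and 248, 262 and 307 RPM in 2MUT. The groups did not overlap, but the gap between the highest Control and the lowest 2MUT library was small, and the log2 fold change of 0.43 (SE 0.14, limma, adjusted p = 0.031) was the weakest of the 5 rises. It was not called without 2MUT replicate 2 (adjusted p = 0.066), without 2MUT replicate 3 (0.13), without Control replicate 2 (0.093) or with no filter on low values (0.053). The 2-HG(-) libraries held 75.4, 81.4 and 60.2 RPM and the 2-HG(+) libraries 96.0, 49.8 and 41.6 RPM, so that 1 treated library lay above and 2 below all untreated ones, a change of -0.29 (SE 0.26, adjusted p = 0.43). Without 2-HG(+) replicate 1 it was -0.64 (adjusted p = 0.010).

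The receptor side of adrenomedullin was thinly measured, with 2 of 6 genes tested in the first experiment and 3 in the second. Ackr3, a scavenger receptor that takes up adrenomedullin, was 31.8, 50.1 and 46.9 RPM in Control and 92.1, 84.6 and 94.4 RPM in 2MUT, a rise of 1.08 (limma, adjusted p = 0.00046). Ramp3, the accessory protein that turns the calcitonin receptor-like receptor into an adrenomedullin receptor, was 20.4, 25.9 and 22.2 RPM in Control and 13.3, 9.96 and 10.7 RPM in 2MUT, and fell by 0.95 (adjusted p = 0.0014). The ligand and its scavenger thus went up where the accessory protein went down. With 2-HG neither was called by limma, and Calcrl, the calcitonin receptor-like receptor itself, went from 4.41, 2.67 and 4.74 RPM to 5.16, 6.19 and 6.40 RPM, a change of 0.51 (limma, adjusted p = 0.068) that DESeq2 called (0.048). Under quantile or median-of-ratios scaling limma called 1 of the 3 genes higher with 2-HG, and edgeR called 0. Calcrl is named here after its values were seen.

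Tfrc (chromosome 16, 32608920 to 32632794, plus strand, 19 exons) encodes the transferrin receptor, through which cells take up iron, and its transcript is also stabilized by iron regulatory proteins when iron is short. It was 29.6, 34.8 and 27.6 RPM in Control and 30.4, 32.9 and 39.2 RPM in 2MUT. The groups overlapped, and the change of 0.15 (95% interval -0.17 to 0.48, limma, adjusted p = 0.46) did not pass the test. With 2-HG it went from 113, 100.47 and 107 RPM to 188, 200.2 and 191 RPM. The groups were far apart, with a log2 fold change of 0.85 (SE 0.09, adjusted p = 0.00013) that held with any library left out.

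Of the other genes of iron handling, 2 of 9 rose and 2 fell in 2MUT, and 2 of 6 fell with 2-HG. The second of these, Hfe, at -0.43 (limma, adjusted p = 0.047), was lost with edgeR (0.057), DESeq2 (0.088) and without any single library but 2-HG(+) replicate 2. This leaves 1 of 6, except without 2-HG(+) replicate 3, where 2 of 6 fell and 1 rose. Steap3, the reductase that works beside the transferrin receptor in the endosome, fell in both, by 0.83 in 2MUT (limma, adjusted p = 0.0056) and by 1.07 with 2-HG (adjusted p = 0.00034). Its libraries held 15.7, 16.2 and 20.1 RPM in Control, 11.1, 7.61 and 9.36 RPM in 2MUT, 19.1, 15.5 and 16.3 RPM in 2-HG(-) and 8.07, 7.58 and 6.93 RPM in 2-HG(+). Slc11a2, the transporter that moves iron out of the endosome, rose in 2MUT by 0.47 (adjusted p = 0.0024). Tfr2, the second transferrin receptor, fell in 2MUT from 9.88 ± 1.64 to 1.77 ± 0.853 RPM (SD, n = 3), a log2 change of -2.01 (adjusted p = 0.00015), and was under the floor in most libraries of the 2-HG experiment. With 2-HG the receptor gene Tfrc therefore rose while the reductase gene Steap3 fell.

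Bhlhe40 (chromosome 6, 108660629 to 108666925, plus strand, 5 exons), which encodes the repressor DEC1 of the clock and of cell growth, was the 1 gene of the 9 that fell in 2MUT. It was 449, 266 and 338 RPM in Control and 189, 187 and 222 RPM in 2MUT. The groups did not overlap, with a log2 fold change of -0.79 (SE 0.16, limma, adjusted p = 0.0034). In 2-HG(-) it was 55.9, 55.8 and 69.5 RPM, and in 2-HG(+) 216, 67.6 and 60.0 RPM. A single treated library stood apart and the other two were at the untreated level, so that the change of 0.67 (SE 0.39, adjusted p = 0.23) became 0.08 (adjusted p = 0.66) without 2-HG(+) replicate 1.

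In the clock list, to which Bhlhe40 is tied because it represses Clock-driven transcription, 3 of 8 genes fell in 2MUT (1 in the unmoderated test), and 2 of 9 rose and 2 fell with 2-HG. The 2 rises, of Clock and Cry1, were not both called without any single library of that experiment (1 or 0 were), and 0 were called with no filter or with the unmoderated test. Nr1d1, a nuclear receptor that represses Arntl, was 77.8, 79.5 and 89.8 RPM in Control and 30.1, 38.2 and 30.3 RPM in 2MUT, and fell by 1.31 (limma, adjusted p = 3.8e-05). Its relative Nr1d2 fell by 0.69 (adjusted p = 0.0047). With 2-HG, the Nr1d1 change was 0.29 (adjusted p = 0.28) and the genes that fell with the firmest calls were Per3 at -1.06 (adjusted p = 0.0085) and Per2 at -0.59 (adjusted p = 0.010).

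Mxi1 (chromosome 19, 53310518 to 53375810, plus strand), which encodes a MAX partner that opposes MYC and is known as a HIF target, varied widely within groups. It was 491, 362 and 262 RPM in Control and 498, 452 and 548 RPM in 2MUT, so that Control replicate 1 lay inside the 2MUT range. The change of 0.47 (SE 0.18, limma, adjusted p = 0.068) did not pass the test, and without Control replicate 1 it was 0.69 (adjusted p = 0.006). Libraries of 2-HG(-) held 104, 148 and 127 RPM and those of 2-HG(+) 207, 132 and 112 RPM, a change of 0.22 (adjusted p = 0.47) that came to -0.04 without 2-HG(+) replicate 1. In the MYC, MAX and MXD network around it, 1 of 9 genes rose and 2 fell in 2MUT (1 fell without 2MUT replicate 1, 2 or 3, 2 rose without Control replicate 2, and 0 rose and 1 fell in the unmoderated test), and 2 of 9 rose and 2 fell with 2-HG. Mxd3 fell by 2.20 in 2MUT (adjusted p = 1.2e-05) and rose by 0.70 with 2-HG (adjusted p = 0.0041), and Mxd4 and Mxd1 fell with 2-HG by 1.13 and 0.92 (adjusted p = 0.00016 and 0.00097). Myc itself rose with 2-HG by 0.80 (adjusted p = 0.001).

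Ankrd37 (chromosome 8, 45996902 to 46005707, minus strand), an ankyrin repeat gene known as a direct HIF target, was read by 26 to 71 reads in a library, the fewest among the 9 tested genes. It was 6.51, 7.55 and 9.16 RPM in Control and 5.56, 6.295 and 4.95 RPM in 2MUT. All 2MUT libraries were below all Control libraries, yet the change of -0.40 (95% interval -0.84 to 0.04, limma, adjusted p = 0.15) did not pass the test. In 2-HG(-) it was 2.07, 2.81 and 2.28 RPM and in 2-HG(+) 4.69, 1.56 and 2.09 RPM, again with 1 treated library above and the lowest value also among the treated ones. The change of 0.08 (SE 0.27, adjusted p = 0.85) turned to -0.26 (adjusted p = 0.31) without 2-HG(+) replicate 1.

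The changes in the 2 experiments were compared directly in 12 libraries, as the change in 2MUT minus the change with 2-HG, over 9594 genes tested in both. For 4 of the 9 genes the difference was negative past the threshold. Over all genes 19.5% were called more negative and 19.9% more positive, a smaller share than 4 of 9. Tfrc differed by -0.70 (SE 0.16, limma, adjusted p = 0.0042), Ndrg1 by -0.56 (SE 0.15, adjusted p = 0.011), Ero1l by -0.73 (SE 0.21, adjusted p = 0.014) and Bhlhe40 by -1.45 (SE 0.50, adjusted p = 0.033). The first 3 rose more with 2-HG, whereas Bhlhe40 fell in 2MUT and was raised in a single 2-HG library. The Bhlhe40 call was lost without Control replicate 1 (adjusted p = 0.079), 2MUT replicate 1 or 2 (0.063 each), 2-HG(-) replicate 1 (0.065) or 2-HG(-) replicate 2 (0.06). Without 2-HG(+) replicate 1, the high library, the difference was -0.87 and was called (adjusted p = 0.014).

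A more positive difference was called for 0 of the 9 genes by limma, edgeR or DESeq2, with 0 also at an unadjusted p under 0.05. The largest positive differences were 0.72 for Adm (95% interval -0.01 to 1.46, limma, adjusted p = 0.11), 0.43 for Higd1a (-0.35 to 1.21, adjusted p = 0.38) and 0.34 for Bnip3 (-0.02 to 0.70, adjusted p = 0.13). Without 2-HG(+) replicate 1 the first became 1.08 (adjusted p = 0.0026) and the third 0.46 (adjusted p = 0.030). Adm, Higd1a and Bnip3, which rose in 2MUT and were not called with 2-HG, were thus not shown to differ between the experiments over all libraries.

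The library 2-HG(+) replicate 1 had the highest value of the 3 treated libraries for 7 of the 9 genes, all but Higd1a and Tfrc. It was the highest for 26.8% of all genes tested, against 30.1% and 43.1% for the other treated libraries. The median change of the 9 genes from the 2-HG(-) mean was 0.76 in this library and 0.08 and 0.09 in replicates 2 and 3. It was 1.83 for Bhlhe40, 0.76 for Ankrd37, 0.72 for Mxi1, 0.44 for Bnip3 and 0.41 for Adm there, while the other treated libraries lay between -0.77 and 0.17 for these 5. Of the 17 tested genes in a list of other HIF-induced genes described further on, it was the highest for 11, against 0 and 6 for replicates 2 and 3. The rises of Ero1l, Ndrg1 and Tfrc were present in every treated library, from 1.43 to 1.68, from 1.02 to 1.34 and from 0.81 to 0.90. Without the library, 3 of the 9 genes were higher and 1, Adm, was lower with 2-HG. Its depth of 15126812 reads lay within the range of its experiment, and what set it apart for these genes was not tested.

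**Figure D3:**
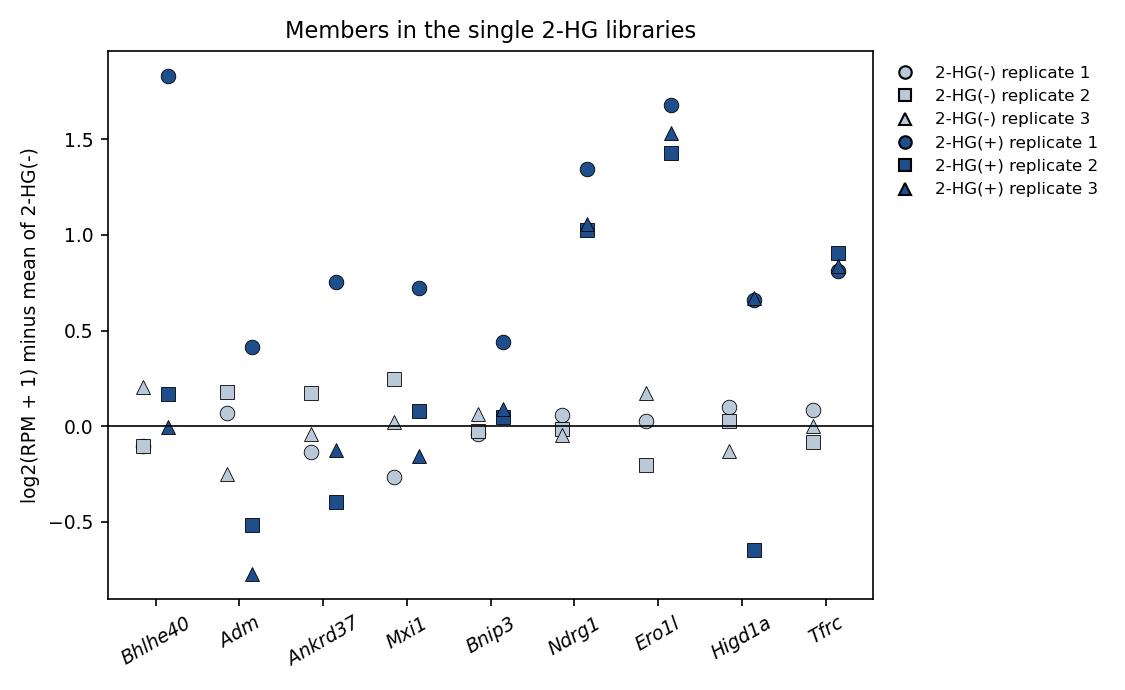
Value of each gene in each 2-HG library as log2(RPM + 1) minus the mean of the 3 2-HG(-) libraries (vertical axis), with 2-HG(-) in light blue, 2-HG(+) in dark blue and the replicate number as the symbol. The dark circles of replicate 1 stand above both other treated libraries for the first 7 genes, by most for Bhlhe40 at 1.83, whereas Ero1l, Ndrg1 and Tfrc are raised in all 3.

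The factor upstream differed between the experiments at the RNA level. Hif1a, the α subunit that oxygen destabilizes as a protein, was 83.0, 84.3 and 76.6 RPM in Control and 267, 232 and 256 RPM in 2MUT. Its groups were far apart, with a log2 fold change of 1.62 (SE 0.10, limma, adjusted p = 1.3e-06). In 2-HG(-) it was 299, 373 and 312 RPM and in 2-HG(+) 388, 319.8 and 289.9 RPM, overlapping groups with a change of 0.02 (95% interval -0.28 to 0.31, adjusted p = 0.94), and the difference of 1.60 passed its own test (adjusted p = 6.6e-06). The 3 genes that rose with 2-HG did so with no called change in Hif1a RNA; HIF protein was not measured in these data.

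Of the other HIF factors and hydroxylases, Epas1, the α subunit HIF-2α, was near 1 RPM, at -0.59 in 2MUT (limma, adjusted p = 0.12) and -0.48 with 2-HG (adjusted p = 0.026). The latter was called with all libraries and without 2-HG(+) replicate 3, and was lost without any one of the other 5 libraries of that experiment (adjusted p up to 0.086) and with DESeq2 (0.076). Egln1, the main HIF prolyl hydroxylase and itself a HIF target, was 306, 221 and 302 RPM in Control and 368, 329 and 453 RPM in 2MUT, a rise of 0.47 (adjusted p = 0.028) that was lost with no filter on low values, in the unmoderated test and without 2MUT replicate 1, 2MUT replicate 3 or Control replicate 2 (adjusted p up to 0.12). With 2-HG it went from 159, 187 and 183 RPM to 316, 196 and 175 RPM, with replicate 1 highest once more, and the change of 0.33 (adjusted p = 0.22) did not pass the test. Egln3, a hydroxylase gene that HIF strongly induces, was at -0.30 in 2MUT (adjusted p = 0.061; called without Control replicate 1 at 0.021, with edgeR at 0.048 and with DESeq2 at 0.044) and -0.06 with 2-HG (adjusted p = 0.80), and Vhl was at 0.24 (adjusted p = 0.22) and -0.04 (adjusted p = 0.85). Arnt, the partner subunit, was at 0.09 in 2MUT (adjusted p = 0.44) and fell by 0.46 with 2-HG (adjusted p = 0.022; lost without 2-HG(+) replicate 1, 2-HG(-) replicate 1 or 2-HG(-) replicate 3, up to 0.093). Its relative Arnt2 rose by 0.55 in 2MUT (adjusted p = 0.033; lost with no filter, in the unmoderated test and without 2MUT replicate 1 or 2 or Control replicate 1 or 2, up to 0.11) and fell by 1.29 with 2-HG (adjusted p = 0.00031), and the difference of 1.84 passed its own test (adjusted p = 3.3e-05).

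In a list of 20 other HIF-induced genes outside glycolysis, 7 of 18 tested rose and 2 fell in 2MUT, and 5 of 17 rose and 3 fell with 2-HG. The 3 came to 1 without 2-HG(-) replicate 1 or 3 and in the unmoderated test. In 2MUT the unmoderated test called 3 higher and 1 lower, and 1 was called lower without 2MUT replicate 3 or Control replicate 1. The medians were 0.29 and 0.20. The collagen-modifying enzyme genes P4ha2 and Plod2 and the haem-degrading Hmox1 rose in 2MUT by 0.88, 0.97 and 0.93 (limma, adjusted p = 0.0001, 0.00049 and 0.00069). P4ha2 went from 512, 563 and 629.6 RPM to 939, 1116 and 1081 RPM. It was also called higher with 2-HG, by 0.38 (adjusted p = 0.021), a call lost without 2-HG(+) replicate 2, 2-HG(+) replicate 3, 2-HG(-) replicate 2 or 2-HG(-) replicate 3 (adjusted p up to 0.077). Narf fell by 0.90 in 2MUT (limma, adjusted p = 0.0009). Wsb1 was at 0.33 in 2MUT and -0.47 with 2-HG, and the difference of 0.79 passed its own test (limma, adjusted p = 0.00091).

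Vldlr, a lipoprotein receptor gene, and Stc2, a secreted glycoprotein gene, rose in both experiments, as Ero1l and Ndrg1 did, and held both calls with any library left out. Vldlr was 69.5, 50.0 and 64.1 RPM in Control and 88.5, 96.3 and 104 RPM in 2MUT (log2 fold change 0.66, limma, adjusted p = 0.0036), and went from 4.68, 6.48 and 4.80 RPM to 26.2, 19.5 and 18.2 RPM with 2-HG (1.81, adjusted p = 7.4e-05). Its difference between the experiments was -1.16 (adjusted p = 0.0017), so that it too rose more with 2-HG. Stc2 rose by 1.71 in 2MUT (adjusted p = 0.001) and by 1.14 with 2-HG (adjusted p = 0.0024), with a difference of 0.57 (95% interval -0.29 to 1.44, adjusted p = 0.28) that did not pass its test.

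**Figure D4:**
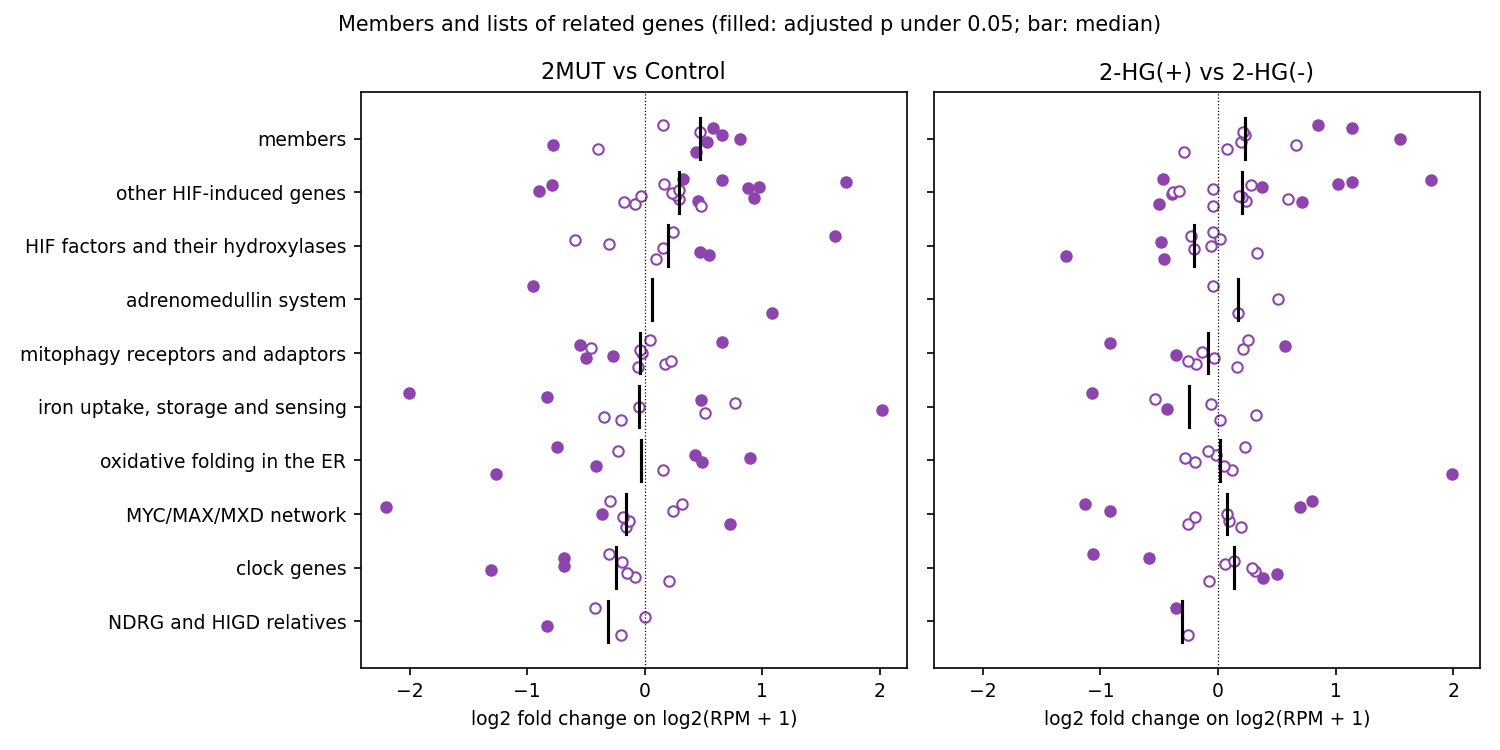
Log2 fold change on log2(RPM + 1) (horizontal axis) of every tested gene of the members and of the 9 lists of related genes (vertical axis), in 2MUT against Control (left) and 2-HG(+) against 2-HG(-) (right); each point is a gene, filled where the adjusted p is under 0.05, and a bar marks the median of a list. In 2MUT the median of the members is 0.47 and that of the other HIF-induced genes 0.29, and most other lists hold called genes on both sides of 0.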

How the data were processed

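The authors prepared Ion AmpliSeq libraries from 100 ng of total RNA, used TMAP for alignment to the AmpliSeq mouse reference, obtained counts per gene from the AmpliSeqRNA plug-in, and deposited them as RPM, 1 table per experiment. Every library summed to 1000000 within rounding, and 100% of its values of up to 100 reads corresponded to whole reads (tolerance 0.1 read), from which its depth followed. The tables list different entries and were normalized separately, so changes were computed within a table. Counting error sets the floors; it does not cover amplification.

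The test was limma 3.58.1 (R 4.3.3) with a mean-variance trend on log2(RPM + 1), for genes whose mean over the 6 libraries was 1 RPM or more, with Benjamini-Hochberg adjustment over all genes tested and a threshold of 0.05. A fold change on this scale understates the change of low genes. The study's own test was per gene without moderation and was run as an alternative, with edgeR 4.0.16 and DESeq2 1.42.0 on the recovered whole reads, other filters, pseudocount and scalings, a replicate block and fits without each single library. Functions were tested on simulated data. The members and lists were chosen by name with earlier results of these data known. Every member is named; of a list, at most 4 called genes per comparison with the lowest adjusted p, and Hif1a, Epas1, Vhl, Egln1 and Egln3. Some of the genes this rule covers are not reported here. Gene positions are from GENCODE M21 (GRCm38), sequences from RefSeq (GRCm38.p6), and positions of the amplified targets were not used. Tables were handled with pandas 2.3.3 and plots drawn with matplotlib 3.10.9.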

Additional observations from a re-analysis of the deposited data

Results flagged for a closer look

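The change in 2MUT minus the change with 2-HG was past the threshold for 4 of the 9 tested genes (limma over 12 libraries, Benjamini-Hochberg adjustment over 9594 genes). It was -0.56 for Ndrg1 (95% interval -0.89 to -0.23) and -0.73 for Ero1l (-1.19 to -0.28), genes that rose in both experiments and in every changed library. It was -0.70 for Tfrc (-1.05 to -0.35), which was called with 2-HG alone, and -1.45 for Bhlhe40 (-2.52 to -0.38), where 1 of the 3 2-HG(+) libraries was high. Without that library, replicate 1, the Bhlhe40 difference was -0.87 (adjusted p = 0.014), and without Control replicate 1, 2MUT replicate 1 or 2, or 2-HG(-) replicate 1 or 2 it was not called (adjusted p up to 0.079).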

How the results depend on the processing

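The calls of the members under the other filters, the pseudocount of 0.1, both other scalings, edgeR and DESeq2 were those given, except that Adm was not called in 2MUT with no filter (adjusted p = 0.053). In 2MUT the unmoderated per-gene test called 2 members higher and 0 lower, 10 genes of the lists higher and 8 lower, and 1021 and 1223 of all genes. With 2-HG it called 3 members higher and 0 lower, 7 and 9 genes of the lists and 1098 and 1139 of all genes. Under it Bnip3, Ero1l, Bhlhe40 and Adm were not called in 2MUT (adjusted p = 0.053, 0.064, 0.091 and 0.17), nor was the Bhlhe40 difference (0.11). This test leaves 4 residual degrees of freedom per gene.

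With each library left out in turn, members called in 2MUT were 4 to 6 higher and 1 lower, and with 2-HG 3 to 4 higher and 0 to 1 lower. All genes ranged from 1271 to 1926 higher and 1484 to 1880 lower in 2MUT, and from 1146 to 1745 and 1176 to 1580 with 2-HG. Genes of the lists, 18 higher and 17 lower in 2MUT and 11 and 15 with 2-HG over all libraries, ranged from 15 to 20 and 11 to 16, and from 8 to 11 and 8 to 13. The lower counts thus fell with every library left out, to 11 without 2MUT replicate 2 or 3 and to 8 without 2-HG(-) replicate 3. Differences between the experiments ranged from 3 to 4 more negative and 0 to 2 more positive. Among the members, values turned sign with 2-HG for Ankrd37 (-0.26 to 0.32 over the left-out libraries) and Mxi1 (-0.038 to 0.40), without 2-HG(+) replicate 1, and for the Higd1a difference (-0.0093 to 0.65), without 2-HG(+) replicate 2; the cause was not tested. Of the uncalled 2-HG changes of HIF factors, those of Hif1a (-0.10 to 0.11), Vhl (-0.15 to 0.06) and Egln3 (-0.20 to 0.05) also turned.

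In their deviations from the group mean, same-numbered libraries correlated at 0.071, 0.029 and 0.032 in the first experiment and at -0.457, -0.158 and 0.057 in the second. Differently numbered libraries of the second reached 0.48, for 2-HG(-) replicate 2 with 2-HG(+) replicate 1. With 3 libraries a group these values cannot show whether libraries were paired, and the main test took them as unpaired. With the replicate number as a block, 5 members were higher and 1 lower in 2MUT, 3 were higher with 2-HG, and 4 differences were more negative, with 1911 and 1987 of all genes called in 2MUT and 1217 and 1286 with 2-HG, and it changed no call of a member. The 3 libraries a group, the short amplified targets and the counting floor limit the rest.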
